A study of Homo sapiens with 12 samples.

Results

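Transient addition of wild-type NFATC1 to control PC-3 cells was examined by setting the 2 samples of control cells given the wild-type vector (WT) against the 2 samples of control cells (control), which are 4 of the 12 samples of the series, over all 25471 genes tested. The samples were chosen by their titles and not by a measured value, but with earlier results of these data known. PC-3 is an androgen-independent human prostate cancer line. All 4 samples carried a stably transfected empty pcDNA3.1 vector together with the fluorescent marker Td-Tomato, and were pools of cells selected with G418 rather than single clones. WT samples in addition received an expression vector for wild-type NFATC1 with Fugene HD. The labels name no transient empty vector for the control samples, so that NFATC1 and the transfection itself cannot be told apart. The study's methods place RNA extraction on the day after transfection, while its results name a later time. Nothing in the labels says that the replicates came from separate cultures. The p-values measure the spread between replicates, pooled over all groups of the 12 samples and both dyes, and this spread may be technical.

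NFATC1 belongs to the NFAT family of transcription factors, which stay in the cytoplasm while phosphorylated and enter the nucleus once the calcium-dependent phosphatase calcineurin removes the phosphates. In the nucleus NFAT proteins bind the core letters GGAAA, often beside AP-1 factors, and RCAN1, an inhibitor of calcineurin, is a classical target. Kinases such as PIM1 act on NFATC1, and NFAT activity has been tied to the motility of epithelial cancer cells.

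Both groups were labelled with Cy3, so that no difference between dyes enters the comparison. Control replicate 1 and WT replicate 1 lay on slide 1 and the other replicates on slide 2, but control and WT samples never shared an array, so that array and group cannot be told apart. Of the spots of these 4 channels, 64.5% to 69.0% were well above background and 0 were saturated. The array of control replicate 1 stood apart. Of its spots, 784 differed at least 2-fold from the other control array, of which 81.4% lay in the first 32 of 85 columns, which hold 37.4% of all spots. Of these 784 spots, 434 differed the same way at least 2-fold between the PIM1 replicates, which were hybridized to the same arrays in the Cy5 channel, and 413 of those were lower in replicate 1. The WT replicates differed at least 2-fold at 157 spots. At the level of genes, 292 (1.15%) differed at least 2-fold between the control replicates and 51 (0.2%) between the WT replicates. The epithelial and mesenchymal markers of PC-3 cells (KRT8, KRT18, KRT19, EPCAM, VIM and CD44) were well above background. Precision is limited by there being 2 arrays a group.

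NFATC1 itself was measured by 2 probes, which did not move together. Levels here and below are quantile-normalized log2 intensities, and differences are WT minus control on the log2 scale. The former probe had levels of 8.33 and 8.25 in control and 8.25 and 8.30 in WT samples, and the groups overlapped. The latter, designed to another NFATC1 transcript, had levels of 6.87 and 6.87 in control and 7.72 and 7.82 in WT samples. Both WT samples were thus above both control samples, by 0.90 on the log2 scale (standard error 0.115) or 1.87-fold, with an adjusted p of 0.0274 when limma was fitted to single probes. In the median over both probes NFATC1 had a difference of 0.44 (standard error 0.0749, adjusted p = 0.0692, limma), which missed the threshold. Which part of NFATC1 the probes and the vector share is not given in the sources used here. At the same latter probe, PIM1 + MM cells, which carry stable PIM1 and received a multi-mutant NFATC1, had levels of 11.98 and 11.92 in Cy5, against 6.58 and 6.19 in PIM1 cells. The difference of the additions at this probe, WT minus control less PIM1 + MM minus PIM1, was -4.67 (standard error 0.163, adjusted p = 8.26e-06, limma). At the former probe it was 0.085 (standard error 0.0829, adjusted p = 0.627, limma), and PIM1 + MM minus PIM1 was -0.10.

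Few genes changed and their changes were small. Of 25471 genes, 52 (0.204%) passed an adjusted p of 0.05 in limma, of which 20 (0.0785%) were higher and 32 (0.126%) lower in WT than in control samples. Among them were 37 with a gene symbol, 18 higher and 19 lower. Only 1 gene (0.00393%), STRADB, passed the threshold with at least a 2-fold difference, and the others had absolute differences between 0.39 and 0.95. In all 52 genes the levels of the groups did not overlap, as was so for 45.8% of all genes, and the direction was the same on both slides and without control replicate 1. At an unadjusted p of 0.05, 2737 genes (10.7%) passed. The count of 52 rested on single samples. Without control replicate 1 it was 3 (0.0118%: STRADB, MALAT1 and the transcript DA734158), without WT replicate 1 it was 4, without WT replicate 2 it was 23, and without control replicate 2 it was 58, of which 25 were among the 52. With the fit limited to the 4 samples compared, 0 genes passed, while 3113 had an unadjusted p under 0.05.

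The slides were also read apart. On slide 1, which holds control replicate 1, 270 genes were at least 2-fold higher and 58 at least 2-fold lower in WT than in control samples. On slide 2 these counts were 13 and 6. Only 1 gene, STRADB, was past 2-fold the same way on both slides. At a difference of 0.5 on the log2 scale, 9 genes were higher and 27 lower on both slides, and 7 went opposite ways. Over all genes, 61.9% had the same sign on both slides.

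**Figure D1:**
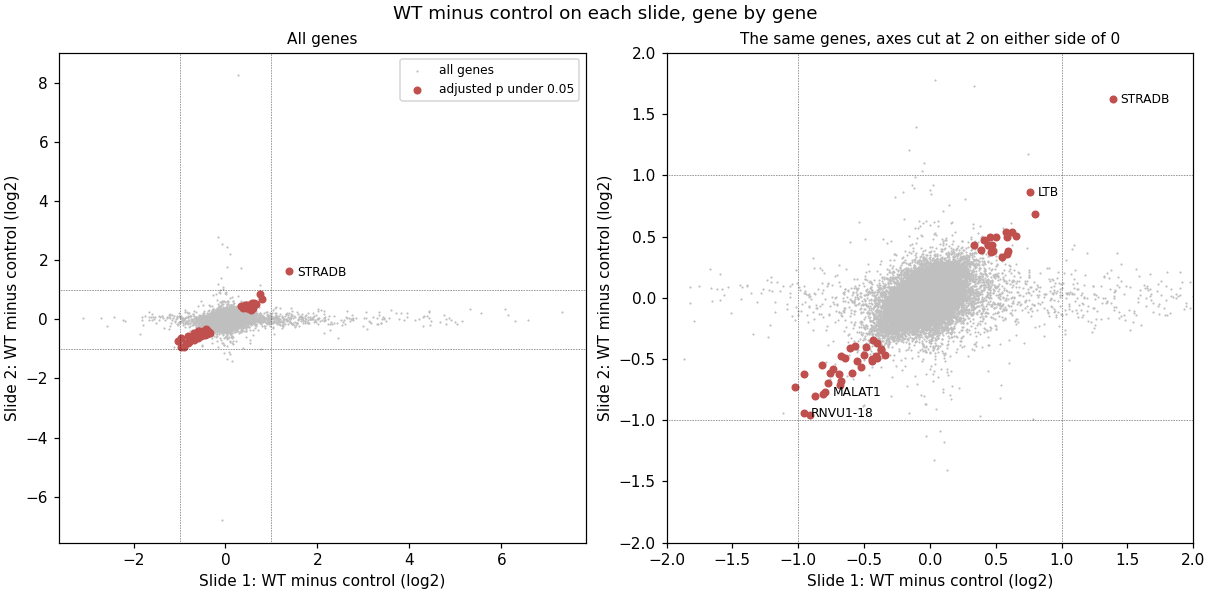
WT minus control on slide 1 (horizontal axis, log2) and on slide 2 (vertical axis, log2) for every gene, shown in full on the left and within 2 log2 units of 0 on the right, with the 52 genes that passed an adjusted p of 0.05 in red and dotted lines at a 2-fold difference. Most large differences lie along the axis of slide 1, and STRADB alone lies past 2-fold on both slides.

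STRADB, a pseudokinase that binds the kinase LKB1, had gene levels of 7.85 and 7.59 in control and 9.24 and 9.21 in WT samples. The difference was 1.51 (standard error 0.0910, adjusted p = 0.0011, limma), or 2.84-fold. Its 2 probes did not bear this out. The former read 6.86 in control replicate 1 and 9.61 in control replicate 2, against 9.59 and 9.50 in WT samples. The latter read 8.83 and 5.56 in the control replicates, against 8.89 and 8.92. Each probe was thus low on only 1 of the control arrays, and the PIM1 samples on those arrays were low at the same probes (6.86 at the former in PIM1 replicate 1, and 6.10 at the latter in PIM1 replicate 2). The median of 2 probes turned these single low readings into a difference on both slides. Neither probe passed on its own, with adjusted p of 0.67 and 0.607 (limma).

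When each of the 31484 probes was tested on its own, which was added after these probes were seen, 60 probes (0.191%) passed, 20 (0.0635%) higher and 40 (0.127%) lower, and 46 of the 52 genes were among those named by a probe that passed. The only called probe past 2-fold (0.00318%) was 1 of 3 for the transcript ENST00000624686, to which no symbol was matched. It read 13.44 and 13.46 in control and 10.40 and 10.41 in WT samples, and fell by 3.05 on the log2 scale (8.27-fold lower, adjusted p = 3.74e-07, limma). The other probes of that transcript differed by -0.26 and -0.23 and did not pass. PPP3R1, the regulatory subunit of calcineurin, likewise had 1 probe that passed, with 8.67 and 8.54 in control and 7.92 and 7.97 in WT samples (adjusted p = 0.0171), while its gene median of -0.37 had an adjusted p of 0.0502. EEF1A1, a translation elongation factor with many near-identical copies, had 5 probes, of which 2 passed, with differences of -0.78 and -0.53. The other EEF1A1 probes differed by 0.10, -0.30 and -0.09 and did not pass.

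**Figure D2:**
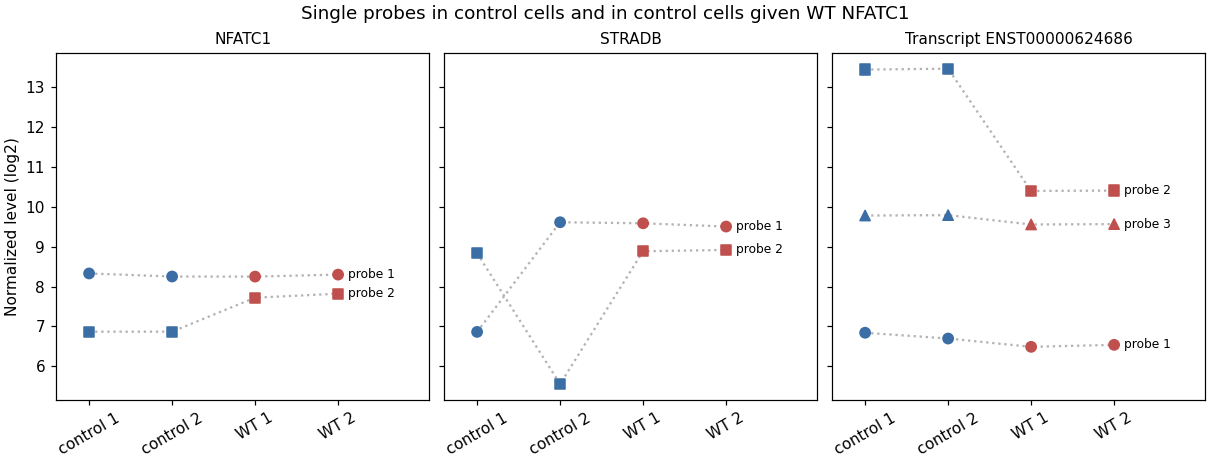
Normalized level (log2, vertical axis) of every probe kept for NFATC1, STRADB and the transcript ENST00000624686 in the control samples (blue) and WT samples (red), with dotted lines joining the values of a probe. The latter NFATC1 probe is higher in both WT samples, each STRADB probe is low in only 1 control sample, and probe 2 of the transcript is lower in both WT samples.

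Since NFAT proteins bind GGAAA, the 250 bases before the start of 2 genes that rose and 2 that fell are shown in full, from the RefSeq promoter set on GRCh38.p14. They are written 5' to 3' on the strand of the gene, with GGAAA, or TTTCC where it stands on the other strand, in capitals.
PFN1 (chr17:4948531-4948780, - strand): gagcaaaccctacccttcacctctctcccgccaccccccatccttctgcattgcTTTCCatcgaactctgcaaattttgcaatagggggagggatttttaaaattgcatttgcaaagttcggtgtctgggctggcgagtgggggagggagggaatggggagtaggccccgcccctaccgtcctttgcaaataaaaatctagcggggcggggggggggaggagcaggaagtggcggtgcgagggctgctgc
CALU (chr7:128739109-128739358, + strand): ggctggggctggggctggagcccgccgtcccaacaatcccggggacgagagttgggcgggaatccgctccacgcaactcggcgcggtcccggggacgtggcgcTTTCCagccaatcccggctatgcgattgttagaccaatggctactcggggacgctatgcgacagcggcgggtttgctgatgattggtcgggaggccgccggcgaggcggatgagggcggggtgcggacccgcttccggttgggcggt
H4C5 (chr6:26204360-26204609, + strand): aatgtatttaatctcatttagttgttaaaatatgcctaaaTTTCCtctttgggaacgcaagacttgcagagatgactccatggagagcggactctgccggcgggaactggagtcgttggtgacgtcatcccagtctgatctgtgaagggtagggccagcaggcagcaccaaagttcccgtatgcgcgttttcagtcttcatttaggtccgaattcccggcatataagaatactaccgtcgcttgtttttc
H3C4 (chr6:26199294-26199543, - strand): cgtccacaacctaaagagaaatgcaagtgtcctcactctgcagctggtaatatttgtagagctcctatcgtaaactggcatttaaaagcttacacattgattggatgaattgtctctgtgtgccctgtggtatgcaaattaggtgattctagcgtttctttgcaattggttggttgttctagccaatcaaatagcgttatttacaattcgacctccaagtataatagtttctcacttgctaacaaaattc
The windows of PFN1, CALU and H4C5 held 1 match each and that of H3C4 held 0. Of the 27305 promoter windows of this length that were searched, which leave out 1 chromosome, 56.0% held at least 1 match on either strand. Of the called genes with a symbol, 13 of the 18 higher and 10 of the 19 lower had a window, and 9 and 5 of them held the letters. The CArG box, the site of serum response factor, stood in 4 of 33 windows of the adhesion and actin list (12.1%), against 1.14% of those 27305 windows, and CCAAT, on either strand, in 45 of 52 windows of the histone genes (86.5%), against 33.0%. Most members of both lists were not called. Of the called genes' windows, 1 of 13 higher and 0 of 10 lower held the CArG box, and 7 and 3 held CCAAT. These matches describe the windows and do not show a bound site.

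Of the 20 genes that rose, ACTN1 and ILK belong to a list of 40 focal adhesion and actin regulators. PFN1, SMTN and LIMK1, which also act on actin, are described beside them but are outside that list, and no theme was tested. PFN1, profilin, which binds actin monomers, read 13.047 and 13.003 in control and 13.49 and 13.43 in WT samples. It was 1.35-fold higher in WT samples (difference 0.44, standard error 0.0537, adjusted p = 0.0211, limma). ACTN1, the actin crosslinker alpha-actinin 1, had levels of 13.60 and 13.56 in control and 14.10 and 14.06 in WT samples, a 1.41-fold difference (adjusted p = 0.0352, limma). ILK, a scaffold that links integrins to actin, rose from 10.75 and 10.73 to 11.19 and 11.16. For these genes all WT samples lay above all control samples, with gaps several times the spread within a group. SMTN, smoothelin, an actin-binding protein of contractile cells, rose by 0.49, from 10.79 and 10.97 to 11.39 and 11.35. LIMK1, a kinase that acts on cofilin and was named after its values were seen, rose by 0.39 (adjusted p = 0.0422, limma). PFN1P2, a profilin pseudogene whose probes may also bind PFN1, had a median rise of 0.58, while its 4 probes differed by 0.11, -0.09, 0.64 and 0.53.

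Of the 40 genes of a list of focal adhesion and actin regulators, ACTN1 and ILK rose and 0 fell, against 0.0785% and 0.126% of all genes. The median over the 40 was 0.07, against -0.02 over all genes, and 22 members were higher and 6 lower on both slides. Of all genes, 61.9% had the same sign on both slides. Differences ran from -1.53, which did not pass, to 0.50 for ACTN1. Over both slides together 27 members had a higher and 13 a lower mean in WT samples. At an unadjusted p of 0.05, 8 were higher and 1 lower, against 4.15% and 6.6% of all genes.

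The other large increases had no common list. LTB, lymphotoxin beta, a membrane-bound cytokine of the TNF family, read 8.08 and 7.91 in control and 8.84 and 8.77 in WT samples, a 1.76-fold difference (standard error 0.121, adjusted p = 0.0446, limma). CALU, calumenin, a calcium-binding protein of the secretory pathway, rose from 10.98 and 10.99 to 11.56 and 11.53, or 1.47-fold. WT samples lay above control samples in each. GNRHR2 rose by 0.54, the zinc finger genes ZNF687 and ZNF580 by 0.48 and 0.45, and FOXA2, a forkhead transcription factor of endodermal epithelia, by 0.44. Named after their values were seen, SOCS3, a feedback inhibitor of cytokine signalling, rose by 0.44, SCAF1 by 0.43, FST, the activin inhibitor follistatin, by 0.42, and the growth factor MDK by 0.39. In the fit to single probes, the only probes of SOCS3, MDK and ZNF580 each missed the threshold, with an adjusted p of 0.0536 (limma).

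**Figure D3:**
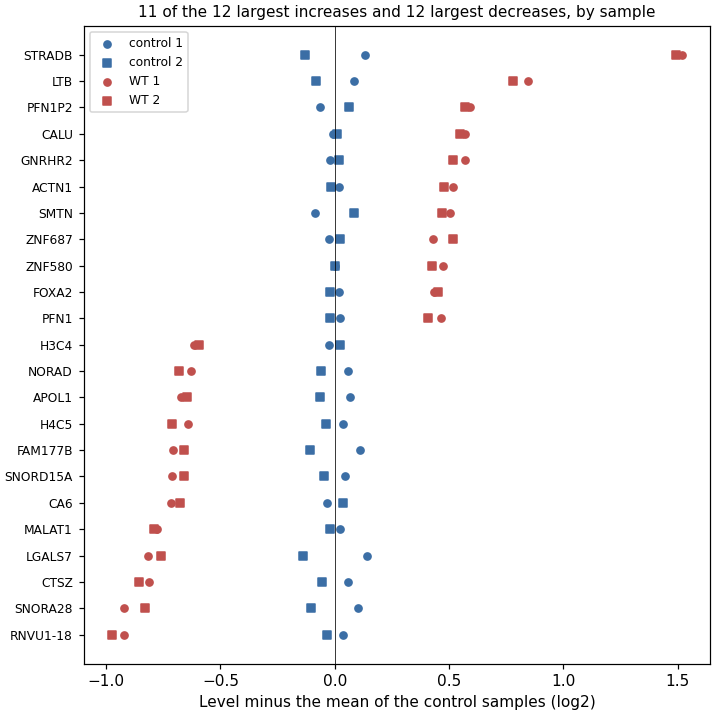
Level of each sample minus the mean of the control samples (log2, horizontal axis) for 11 of the 12 largest increases and the 12 largest decreases that passed an adjusted p of 0.05, with control samples in blue, WT samples in red, circles for replicate 1 and squares for replicate 2. The WT samples lie apart from the control samples in every gene shown. STRADB did not pass at either of its probes, and the only probe of ZNF580 had an adjusted p of 0.0536 in the fit to single probes (limma).

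Histone mRNAs were among the 32 genes that fell. Replication-dependent histone genes encode the bulk of the histones made during S phase, and their mRNAs end in a stem-loop in place of a poly(A) tail. H4C5 read 11.61 and 11.54 in control and 10.93 and 10.86 in WT samples, 1.60-fold lower in WT (difference -0.68, standard error 0.0688, adjusted p = 0.0105, limma). H3C4 read 12.28 and 12.33 in control and 11.69 and 11.71 in WT samples. H3C7 fell by 0.47 and H4C1 by 0.39, while neither H4C1 probe passed on its own (adjusted p of 0.124 and 0.0536, limma). Of the 57 histone genes tested of 61 listed, these 4 fell and 0 rose, against 0.126% and 0.0785% of all genes. The median over the 57 was -0.23, against -0.02 over all genes, and it was -0.24 on slide 1, -0.26 on slide 2 and -0.23 without control replicate 1. On both slides 47 were lower and 2 higher, and at an unadjusted p of 0.05, 33 were lower and 0 higher, against 6.6% and 4.15% of all genes. Most members missed the threshold, such as H3C2 with a difference of -0.69 (adjusted p = 0.0951, limma). The highest difference, 0.91 for H2AC4, went with a low reading of 6.63 in control replicate 1 against 9.52 in control replicate 2. Histone genes are close copies of each other, and a probe may bind more than 1 of them.

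Histone mRNAs are made in S phase, and the other genes of the cell cycle were read beside them. Of 39 genes of DNA replication and S phase tested, 0 passed in either direction, with a median of -0.03 and differences from -0.295 to 3.154. At an unadjusted p of 0.05, 3 were higher and 1 lower, against 4.15% and 6.6% of all genes. MCM2, a subunit of the replicative helicase, had a difference of 0.34 (adjusted p = 0.138, limma), and PCNA, the sliding clamp, did not pass. Of 37 genes of mitosis and G2/M, 0 passed, with a median of -0.02.

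Of the small non-coding RNAs, a few passed the test, all of them lower. This class includes the small nuclear RNAs of the spliceosome and the small nucleolar RNAs that guide modification of ribosomal RNA. Of 23 small nuclear, nucleolar and 7S RNAs tested of 43 listed, SNORA28 and RMRP passed, both lower, against 0.126% of all genes lower. The median over the 23 was -0.26, and 19 were lower and 2 higher on both slides. At an unadjusted p of 0.05, 14 were lower, and RNU12 alone was higher, against 6.6% and 4.15% of all genes. SNORA28, a box H/ACA small nucleolar RNA, read 9.05 and 8.85 in control and 8.03 and 8.12 in WT samples, 1.84-fold lower (standard error 0.0852, adjusted p = 0.0105, limma). RMRP, the RNA of the RNase MRP complex, read 10.23 and 10.28 in control and 9.71 and 9.72 in WT samples. Outside the list, RNVU1-18, a variant U1 RNA, had the largest fall among called genes with a symbol, from 10.89 and 10.82 to 9.93 and 9.88 (1.93-fold lower, adjusted p = 0.0153), and SNORD15A fell by 0.69. SNORD116-19, another small nucleolar RNA, named after its values were seen, fell by 0.51 (adjusted p = 0.0446, limma). The abundant RN7SK and RN7SL1 did not pass.

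Other decreases included long non-coding RNAs and protein-coding genes. MALAT1, an abundant nuclear RNA, read 8.77 and 8.72 in control and 7.97 and 7.95 in WT samples. It was 1.72-fold lower (standard error 0.0522, adjusted p = 0.0011, limma) and had an adjusted p of 0.0266 without control replicate 1. NORAD, a long RNA that binds PUMILIO proteins, was lower at both of its probes, by 0.65 and 0.66 on the log2 scale, and its gene level fell from 10.24 and 10.12 to 9.55 and 9.50. CTSZ, the lysosomal protease cathepsin Z, read 10.08 and 9.97 in control and 9.21 and 9.17 in WT samples (1.78-fold lower, adjusted p = 0.0105). CTSZ was the only called member among 33 invasion proteases and inhibitors, whose median was 0.01, while 0.204% of all genes were called. LGALS7, galectin-7, fell by 0.79, the secreted carbonic anhydrase CA6 by 0.70, FAM177B by 0.69 and APOL1, an apolipoprotein, by 0.66. No symbol was matched to 15 of the 52 genes, of which 13 were lower and 2 higher.

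Genes tied to NFAT signalling did not pass. Of 31 NFAT factors and regulators tested, 0 passed at the gene level, with a median of 0.02. NFATC2 did not pass, and RCAN1 read 10.48 and 10.36 in control and 10.33 and 10.28 in WT samples, a difference of -0.11 (standard error 0.0968, adjusted p = 0.77, limma). Of 26 known NFAT target genes tested, 0 passed, with a median of -0.01 and differences between -0.19 and 0.36. At an unadjusted p of 0.05, 1 target was higher (SNAI1, at 0.36) and 1 was lower (HMOX1, at -0.19), shares of 26 that lie near or below the 4.15% and 6.6% of all genes. Among AP-1 and early growth response factors, 29 were tested and 0 passed. ITGA5, the integrin alpha 5 subunit, had a difference of 0.03 (adjusted p = 0.947, limma), and of 25 integrin subunits 0 passed. PIM1 had levels of 10.05 and 9.85 in control and 10.22 and 10.10 in WT samples (adjusted p = 0.517, limma). For these genes the gaps between the groups were of the size of the spread between replicates, or did not hold across all genes tested.

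Of 35 glycolytic and hypoxia-responsive genes tested, 0 passed. Their median was 0.09, or 0.006 with 75th percentile centring, and 22 had a higher and 13 a lower mean. At an unadjusted p of 0.05, 7 were higher and 1 lower, against 4.15% and 6.6% of all genes. The pyruvate kinase gene PKM read 15.06 and 15.13 in control and 15.68 and 15.73 in WT samples (adjusted p = 0.0532, limma). CA9, a carbonic anhydrase of hypoxic cells, had a difference of 0.30 (adjusted p = 0.189). Interferon-stimulated genes (40 tested), antiviral and DNA sensors and interferons (15), MHC class I genes (16), chemokines and cytokines (31), stress response genes (26), unfolded protein and heat shock genes (23), cholesterol genes (24), death and survival genes (31), epithelial and mesenchymal markers (31) and Notch, Wnt and TGF beta response genes (29) each had 0 calls, with medians between -0.06 and 0.02. The largest single difference in these lists, 3.216 among the unfolded protein and heat shock genes, did not pass. The list of 8 markers of blood, endothelial and fibroblast cells also had 0 calls and a median of 0.00.

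The addition of wild-type NFATC1 was set against the other addition of NFATC1 made within a dye, multi-mutant NFATC1 in cells with stable PIM1, both in Cy5. In these 2 comparisons the form of NFATC1, PIM1 and the dye cannot be told apart, and the arrays of control replicate 1 and of PIM1 replicate 1 are the same. The study checked PIM1 overexpression by real-time qPCR, while the only PIM1 probe here did not show it within Cy3. It read 9.90 and 9.96 in cells with stable PIM1 and wild-type NFATC1, against 10.22 and 10.10 in WT samples. For PIM1 + MM minus PIM1, 3149 genes (12.4%) passed an adjusted p of 0.05 in limma, 5.2% higher and 7.17% lower, against the 52 here. The difference between the additions passed for 1576 genes (6.19%), 43 of the 52 among them. The 52 were chosen on WT minus control, which is a part of this difference, so the choice itself raises their share. The count of 1576 was 0 with median centring and 2 with 75th percentile centring of the arrays. It was 391 without WT replicate 1, 442 without WT replicate 2, 868 and 865 without control replicate 1 and 2, and 1030 without PIM1 + MM replicate 2. Of the 52 genes, 28 moved the opposite way past the threshold in PIM1 + MM minus PIM1 and 4 the same way. The latter include STRADB, whose probes were each low in a control sample and in the PIM1 sample of the same array. Histone genes, which had a median of -0.23 in WT minus control, had 0.24 in PIM1 + MM minus PIM1, where 24 were higher and 3 lower, and the difference passed for 30 of 57. The small RNAs had medians of -0.26 and 0.43, and the difference passed for 17 of 23. Their median deviations were 0.55 and 0.52 in control and -0.58 and -0.595 in PIM1 samples. In WT samples they were 0.25 and 0.275, and in PIM1 + MM samples -0.05 and -0.02. The focal adhesion and actin regulators had 0.07 and -0.26, and the difference passed for 12 of 40. Their median deviations were -0.05 and -0.095 in control and 0.205 and 0.13 in PIM1 samples. In WT samples they were -0.01 and 0.02, and in PIM1 + MM samples -0.11 and -0.14. On each slide alone the PIM1 + MM minus PIM1 medians were 0.25 and 0.27 for histones, 0.35 and 0.48 for small RNAs, and -0.24 and -0.24 for the adhesion and actin list. CTSZ fell by 0.84 in WT minus control and was higher by 0.49 in PIM1 + MM minus PIM1, while PFN1 rose by 0.44 and was lower by 0.60.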

How the data were processed

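Total RNA of 12 PC-3 samples was measured on 6 two-colour Agilent 4x44K arrays, of which the 4 samples of the control and WT groups, all Cy3, are reported here. The authors deposited raw spot intensity values (median signal, not normalized) from Feature Extraction 11.0.1.1, a processed signal that the software had background-subtracted and dye-normalized, and a table of log2 values. The deposited log2 values were within 0.0844 of the quantile-normalized log2 median signal of each spot. Each scanner file was the same under both samples of an array, and the channel of the sample's own dye was used.

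Filtering and quantile normalization followed the study's methods. No background was subtracted, which those methods do not state. Spots with an outlier flag were left out, spots of a probe were averaged, and 31484 of 34127 probes above the 90th percentile of 153 negative control spots in at least 2 channels were kept. Values were quantile normalized over 12 channels, and the median per symbol was taken. Symbols came from RefSeq transcripts on GRCh38.p14, which matched 26377 probes, and 18857 of 25471 genes had a symbol. A linear model with a coefficient for each group was fitted to the 12 samples with limma 3.58.1 (R 4.3.3). Tests were two-sided, with Benjamini-Hochberg adjustment over all genes, and a gene changed at an adjusted p under 0.05. With 200 genes changed in simulated data, the fit for WT minus control recovered 53% of those changed by 0.5 and 90% of those changed by 1 on the log2 scale, with 3 false calls among 25315 genes. With no gene changed it made 0 calls. The simulated samples varied independently, with no array standing apart. In the measured data the consensus correlation of the samples of an array was 0.416, and 784 spots differed at least 2-fold between the control replicates. The simulation therefore gives no false-call rate for the genes called in the measured data.

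Named are NFATC1 with its probes, the 12 largest increases and the 12 largest decreases among called genes with a symbol and the same direction on both slides and without control replicate 1, in each list up to 4 called members and the first 2 written, and ITGA5, PIM1 and RCAN1. Some of these are not reported here. Other genes were named after their values were seen. The groups, the lists and the tests were chosen with earlier results of these data known. The alternatives were other background corrections, normalizations, filters and probe summaries, the slide or the array as a block, and leaving out samples. Columns of other samples numbered 0. Promoter windows on chromosome 8 were not used here.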

Additional observations from a re-analysis of the deposited data

Results flagged for a closer look

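The difference between the additions, WT minus control less PIM1 + MM minus PIM1, passed an adjusted p of 0.05 in limma for 1576 genes. Among the named genes it passed for those given here, with values on the log2 scale and a positive value where WT minus control was the higher. Called genes were chosen on WT minus control, which is a part of this difference, so its sign for them follows in part from that choice. For NFATC1 the difference was -2.29 as a median over 2 probes that did not move together. The latter probe had -4.67 and the former 0.085 (adjusted p = 0.627, limma). Of the largest increases, it was 1.07 for PFN1P2, 0.72 for CALU, 0.87 for ACTN1, 0.92 for SMTN, 0.99 for ZNF687, 0.96 for ZNF580, 0.51 for FOXA2 and 1.03 for PFN1. Of the largest decreases, it was -1.93 for SNORA28, -1.32 for CTSZ, -0.89 for MALAT1, -1.29 for CA6, -0.99 for SNORD15A, -0.75 for FAM177B, -1.31 for H4C5, -0.88 for APOL1, -0.86 for NORAD and -0.88 for H3C4.

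Among the other list members it was 0.65 for PTK2 and 0.61 for ILK, -1.92 for H3C15, -0.64 for H4C1 and -1.19 for H3C7 among histones, and -1.36 for RN7SK, 0.61 for RN7SL1 and -1.56 for RMRP among small RNAs. It was 0.56 for RNA18SN5 and 0.54 for RNA28SN5, the ribosomal RNAs. It was -0.58 for ATF4, -0.49 for HSPA5 and -0.41 for XBP1, which act in stress responses, and 0.64 for CA9, 0.52 for BCL2L1, 0.61 for GAPDH and -0.44 for KRT8. The form of NFATC1, PIM1 and the dye change together between the additions and cannot be told apart. With 2 samples a group, no group was large enough for a test of single outlying samples.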

How the results depend on the processing

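The direction of the 12 largest increases and 12 largest decreases was kept under all 19 alternatives at the gene level, while the number of calls was not. These genes were chosen in part by their direction, and the alternatives reuse the same samples, so a kept direction is little support. It was kept for STRADB too, whose probes did not pass. The count of 52 changed genes was 22 with normexp background correction, 112 with loess and Aquantile, 207 with the filter in all 12 channels and 29 without the array of control replicate 1. It was 0 in limma with median centring, 75th percentile centring, the 6 Cy3 channels alone and the 4 samples alone, with 246, 783, 3612 and 3113 genes at an unadjusted p under 0.05. With the processed signal, 10 genes were higher and 32 lower. The 75th percentile centring moved the median of all genes to -0.11. With the slide as a replicate block the count was 57, of which 45 were among the 52, and with the array as a random block it was 44. The array as a fixed block leaves no WT minus control difference to estimate. The deviations of control and WT samples of a slide had a correlation of 0.0698, while over all pairs of groups it ran from 0.0508 to 0.834. The consensus correlation of the samples of an array was 0.416. The main fit took all samples as independent.

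The count past 2-fold, 1 here, was 0 with median centring, 75th percentile centring, the 6 Cy3 channels alone, the filter in all 12 channels and the 4 samples alone, 2 with the replicate block, 8 with the processed signal and 12 without the array of control replicate 1. The 1576 genes that differed between the additions were 0 with median centring (369 unadjusted), 2 with 75th percentile centring, 2722 with the filter in all 12 channels, 2478 with the array as a random block and 470 with the 8 samples alone. Leaving out 1 sample at a time gave 3 to 58, 1 to 24 and 391 to 1798 for the 3 counts, with 24 past 2-fold without control replicate 2 and 16 without WT replicate 2, and a lone sample is then assumed to vary like the other groups. Against the rise of PFN1P2, its second probe read -0.085. Medians ran from -0.28 to -0.18 for histones, -0.32 to -0.23 for small RNAs and 0.05 to 0.13 for the adhesion and actin list. Cause was not tested for any of these.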
